A study of Homo sapiens with 6 samples.

Results

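A set of 8 genes that are altered in many gliomas was followed in U251, an established human glioma cell line, with and without sevoflurane (Sev), a volatile anesthetic. The genes were the tumor suppressors CDKN2A, CDKN2B and NF1, the metabolic gene MTAP that lies beside CDKN2A, the receptor genes EGFR and PDGFRA, the DNA repair gene MGMT and the telomerase gene TERT. They were chosen by name, and all 8 were found among the 61496 features of the deposited tables by their Ensembl identifiers. The libraries were ribosomal RNA-depleted and strand-specific, with 3 of untreated U251 cells (control) and 3 of U251 cells kept in Sev gas for 2 h. The Sev concentration was 5.1%, taken from the legend of the volcano plot of these cells, while the treatment protocol also lists lower ones from 1.7% and the labels assign none to a single library. The 3 Sev libraries were read as replicates at that concentration. The labels do not say whether the libraries of a group came from separate cultures, so p-values measure only the spread between these libraries, which may be technical. U251 is 1 cell line, grown without surrounding tissue, so each value describes that line alone. Every library held between 38624292 and 46318311 counts. Of 11 glioma and astrocyte markers, 9 had an FPKM (counts scaled for gene length and library size) of at least 1 in every library, and GFAP, VIM and NES were among them. The summed FPKM of the 11 was between 1301 and 1517 in control and between 1304 and 1415 in Sev libraries. Most of it was VIM, with 828 to 1027 in control and 867 to 1001 in Sev libraries. OLIG2 was under 1, with 0.598 to 0.644 in control and 0.101 to 0.176 in Sev libraries. Of 18 markers of neurons, oligodendrocytes, endothelium, leukocytes, epithelium and fibroblasts, 1 (SYT1) reached an FPKM of 1 in every library, and AIF1, a defining marker of microglia, was at 0. GAD1, a marker of neurons, had an FPKM of 1.56 to 1.97 in control and of 0.605 to 0.775 in Sev libraries. The summed FPKM of the 18 markers was between 6.08 and 8.39 in control and between 6.71 and 7.05 in Sev libraries, so the ranges overlapped.

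CDKN2A and CDKN2B encode inhibitors of the kinases CDK4 and CDK6, which with D-type cyclins inactivate the retinoblastoma protein and let a cell enter S phase. A second reading frame of CDKN2A encodes ARF, which holds back the ubiquitin ligase MDM2. NF1 encodes neurofibromin, which switches RAS off, and EGFR and PDGFRA are receptor tyrosine kinases that switch RAS and PI3K on. MTAP recycles methylthioadenosine into methionine, MGMT takes alkyl groups off guanine, and TERT is the catalytic subunit that lengthens telomeres. In gliomas the suppressor genes are often lost, the receptor genes amplified, MGMT silenced by promoter methylation and TERT switched on.

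Levels were given as CPM, counts scaled to a common library size after TMM normalization, which corrects each library for its composition. Changes were log2 fold changes of Sev against control from the quasi-likelihood test of edgeR over 27514 features, and a gene was called when its Benjamini-Hochberg adjusted p was under 0.05. In bulk RNA, fewer cells that transcribe a gene and less RNA per cell cannot be told apart. In control cells 4 of the 8 genes were expressed, with an FPKM of at least 1 in each library (PDGFRA, EGFR, NF1 and MTAP). TERT was low, and CDKN2A, CDKN2B and MGMT had no count in any of the 6 libraries. After Sev, 1 gene was called, EGFR, which was slightly higher, where 43.7% of all tested features were called, 22.1% higher and 21.5% lower. The other 4 tested genes were not called, and none of the 5 passed the study's threshold of a log2 fold change over 1 in size with an unadjusted p under 0.05, which 23.5% of all tested features passed. In CPM the groups did not overlap for 2 genes, NF1 and EGFR, both with higher values after Sev, where 56.5% of tested features did not overlap, 28.3% with higher and 28.2% with lower Sev values. In the deposited FPKM both genes overlapped, since Sev replicate 2 had 9.05 for EGFR, below 9.74 and 9.30 in control replicates 2 and 3, and 5.42 for NF1, below all controls (5.55 to 6.33). The median change of the 5 was 0.0090, beside a median of -0.0056 over all tested features.

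**Figure D1:**
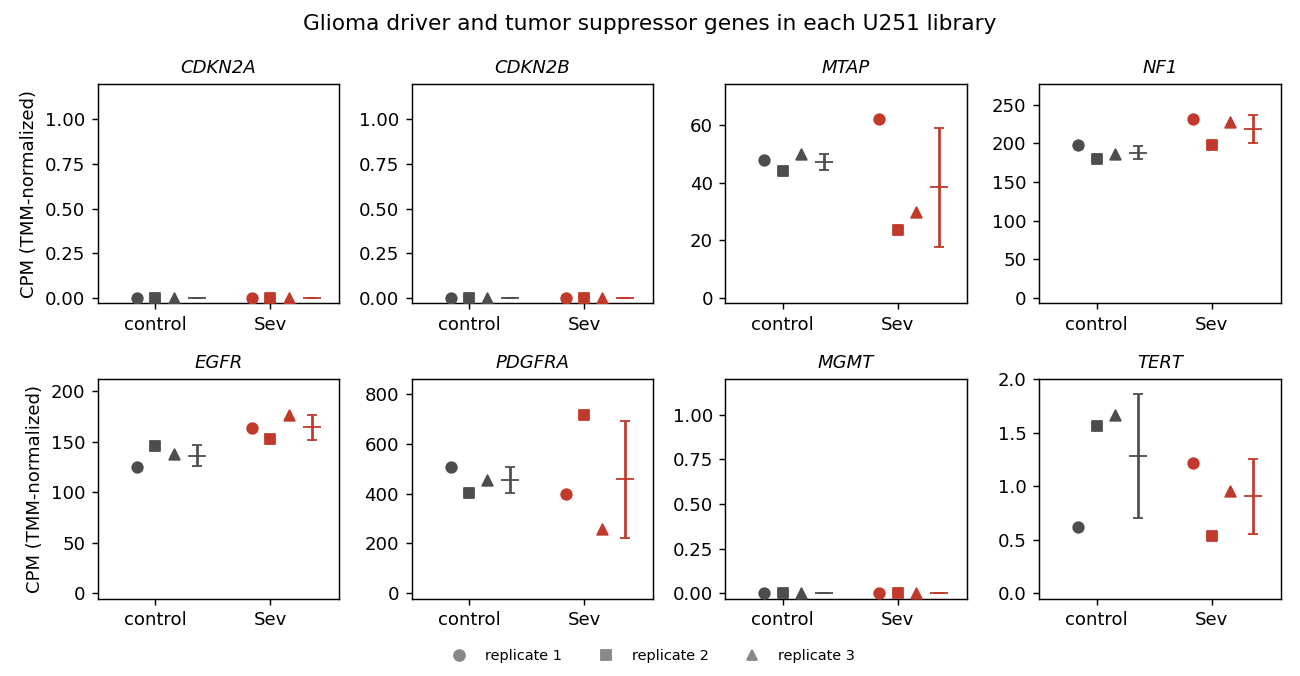
Level of each of the 8 genes in CPM (vertical axes, from 0) in the 3 control (grey) and 3 Sev (red) libraries. Symbols are replicates, and the bar beside each group is the mean with its SD. CDKN2A, CDKN2B and MGMT sit at 0 in all 6 libraries, EGFR and NF1 are higher in each Sev library than in any control library in CPM (not in FPKM), and MTAP and PDGFRA spread widely in the Sev libraries.

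CDKN2A (ENSG00000147889) lies at chr9:21967753-21995301 on the minus strand and CDKN2B (ENSG00000147883) at chr9:22002903-22009363 on the minus strand, by GENCODE 29 on GRCh38. CDKN2A was at 0 counts in control replicates 1, 2 and 3 and in Sev replicates 1, 2 and 3, and so was CDKN2B. A count of 0 in a library allows up to 0.0618 to 0.0798 CPM, the worth of 3 counts, and 0 of 245140761 counts in all 6 libraries allows up to 0.0122 CPM. These bounds cover counting error only. No change after Sev could be tested for either gene. Among protein-coding genes of the annotation, 1748 of 19887, which is 8.79%, were at 0 in all 6 libraries, so a gene at 0 was not rare.

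The empty stretch on the short arm of chromosome 9 was longer than the 2 genes. Between the end of MTAP at 21937651 and the next feature with counts, the long non-coding RNA ENSG00000236921 starting at 22203990, lay 266 kb in which all 8 of 8 annotated features were at 0 in every library. They include CDKN2A, CDKN2B, the divergent transcript CDKN2A-DT and the antisense RNA CDKN2B-AS1, which in other cells represses CDKN2B. Together with ERVFRD-3, a pseudogene inside MTAP, they form 9 features in a row at 0, and 205 of 5729 such runs in the annotation were at least as long. ENSG00000236921 itself had 37 to 108 counts in a library. ENSG00000264545, an annotated gene that starts within MTAP and reads through to the CDKN2B side on the plus strand, was also at 0. How reads in overlapping exons were assigned is not stated, so a count of 0 for these features does not cover reads shared with another gene. RNA levels do not measure DNA copy number, and whether the stretch is deleted in these cells was not tested.

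**Figure D2:**
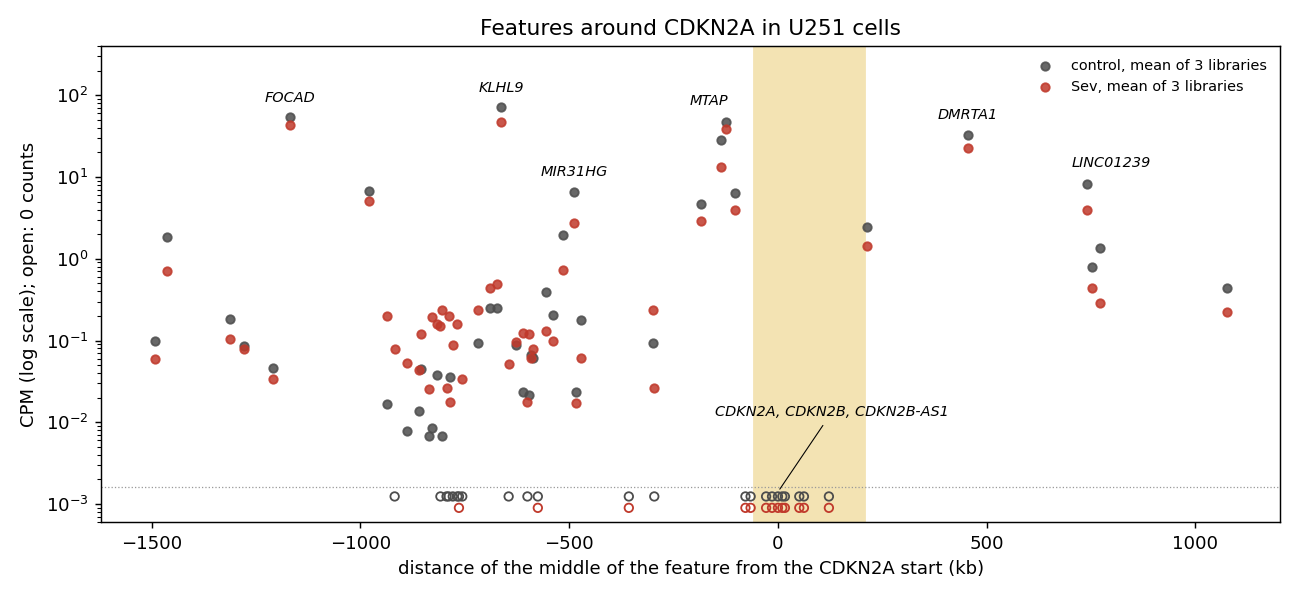
Mean CPM (vertical axis, log scale) of annotated features around CDKN2A in control (grey) and Sev (red) libraries against the distance of the middle of the feature from the CDKN2A start in kb. Open circles are features with 0 counts in the 3 libraries of the group, and the shaded band is the 266 kb between MTAP and the next feature with counts, where every feature is open in both groups.

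MTAP (ENSG00000099810, chr9:21802543-21937651, plus strand) had counts in every library, unlike its neighbor. Its level was 47.8, 44.2 and 49.9 CPM in the control libraries and 62.1, 23.5 and 29.8 CPM in the Sev libraries. Sev replicate 1 was above all controls and Sev replicates 2 and 3 were below all controls, so the groups overlapped. The means were 47.3 ± 2.89 and 38.5 ± 20.7 CPM (SD, n = 3 each), and the log2 fold change was -0.30 (SE 0.32, adjusted p = 0.478 by edgeR). The call turned on 1 library. Without Sev replicate 1 the change was -0.83 with an adjusted p of 0.00680, and without Sev replicate 2 it was -0.039. The SD of log2 CPM was 0.0890 in control and 0.729 in Sev libraries, 8.19 times as large. Of 10855 features with a mean of at least 10 CPM, 1.73% spread more than MTAP among the Sev libraries, and 61.6% did so among the control libraries.

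Features inside the MTAP locus were counted separately. On the opposite strand, the antisense RNA ENSG00000265194 had 1160, 1149 and 1392 counts in control and 501, 419 and 622 counts in Sev libraries. It fell by 1.08 on the log2 scale (SE 0.14, adjusted p = 0.000780 by edgeR), and the groups did not overlap, unlike those of MTAP. TUBB8P1, a pseudogene on that strand, fell by 0.67 (SE 0.18, adjusted p = 0.0186). Processed copies of MTAP elsewhere in the genome held 8.14% as many counts as MTAP in 2 features, so a part of the MTAP reads may be shared with them.

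The starts of the genes at 0 counts and of MTAP can be set side by side. The sequences below are the 250 bases before each RefSeq start on GRCh38.p14, 5′ to 3′ on the strand of the gene, with each CG pair, the site of DNA methylation, in capitals. They are shown because CDKN2A, CDKN2B and MGMT had 0 counts, while MTAP, next to CDKN2A, had counts in every library. The positions are chr9:21802386-21802635 (plus strand) for MTAP, chr9:21995325-21995574 (minus) for the ARF start of CDKN2A, chr9:21974858-21975107 (minus) for its p16 start, chr9:22009306-22009555 (minus) for CDKN2B and chr10:129466991-129467240 (plus) for MGMT.
MTAP: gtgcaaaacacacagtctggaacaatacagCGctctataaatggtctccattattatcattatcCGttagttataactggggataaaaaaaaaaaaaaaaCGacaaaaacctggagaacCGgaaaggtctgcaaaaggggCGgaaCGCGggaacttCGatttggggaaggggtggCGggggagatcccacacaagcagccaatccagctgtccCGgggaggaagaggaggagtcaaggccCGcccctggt
CDKN2A, ARF start: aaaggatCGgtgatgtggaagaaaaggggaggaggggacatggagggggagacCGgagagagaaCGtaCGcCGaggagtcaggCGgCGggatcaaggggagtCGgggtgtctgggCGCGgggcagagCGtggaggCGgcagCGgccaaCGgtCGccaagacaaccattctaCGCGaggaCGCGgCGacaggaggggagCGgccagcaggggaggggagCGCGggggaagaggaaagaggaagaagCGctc
CDKN2A, p16 start: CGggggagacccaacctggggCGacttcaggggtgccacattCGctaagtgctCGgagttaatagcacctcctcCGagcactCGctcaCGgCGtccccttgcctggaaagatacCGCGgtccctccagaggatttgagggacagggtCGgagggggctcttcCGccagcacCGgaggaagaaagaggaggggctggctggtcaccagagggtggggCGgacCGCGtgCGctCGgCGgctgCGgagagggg
CDKN2B: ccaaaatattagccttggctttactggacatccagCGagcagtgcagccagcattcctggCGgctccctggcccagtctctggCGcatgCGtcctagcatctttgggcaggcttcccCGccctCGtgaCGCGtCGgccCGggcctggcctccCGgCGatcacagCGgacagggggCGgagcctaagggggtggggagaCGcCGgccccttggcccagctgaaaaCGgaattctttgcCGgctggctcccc
MGMT: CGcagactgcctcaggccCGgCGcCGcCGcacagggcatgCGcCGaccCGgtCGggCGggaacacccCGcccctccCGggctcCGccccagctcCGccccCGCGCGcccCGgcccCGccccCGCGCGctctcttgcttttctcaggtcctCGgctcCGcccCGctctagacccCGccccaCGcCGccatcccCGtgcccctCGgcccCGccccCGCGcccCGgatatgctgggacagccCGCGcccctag
Over 35116 RefSeq windows of the same length the number of CG pairs can be ranked. MGMT held 36, and 4.85% of windows held as many or more. The ARF start held 24 (23.7% of windows), the p16 start 20 (32.4%), CDKN2B 18 (36.8%) and MTAP 11 (50.3%). Among the other members with counts, TERT held 28, NF1 25, EGFR 25 and 1 at its 2 starts, and PDGFRA 25 and 8, so the number of CG pairs did not set CDKN2A and CDKN2B apart from them. The letters GGGCGG, or CCGCCC on the other strand, which the factor SP1 binds, stood 8 times in the MGMT window, 2 times in those of CDKN2B and MTAP, 1 time at the p16 start and 0 times at the ARF start. It stood 2 times at TERT and at the start with 25 CG pairs of EGFR and of PDGFRA, and 0 times at their other starts and at NF1. At least 1 such match stood in 42.6% of all windows, and 0.584% held as many as MGMT. Methylation was not measured here.

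MGMT (ENSG00000170430, chr10:129467184-129768007, plus strand) was at 0 counts in control replicates 1, 2 and 3 and in Sev replicates 1, 2 and 3. The limits given for CDKN2A apply to it. ENSG00000237224, an antisense RNA inside MGMT, had 0 counts in 5 libraries and 3 in control replicate 3. Of 3 other protein-coding genes that start within 1 Mb of MGMT, EBF3 was at 0 in every library as well. The remaining 2 had counts and moved in opposite directions. GLRX3, a glutaredoxin, rose by 0.36 (SE 0.11, adjusted p = 0.0285 by edgeR), and C10orf143 fell by 2.27 (SE 0.39, adjusted p = 0.00277).

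NF1 (ENSG00000196712, chr17:31094927-31382116, plus strand) was expressed at 197, 180 and 186 CPM in the control libraries and at 231, 197 and 227 CPM in the Sev libraries. Each Sev library was above the controls in CPM, although Sev replicate 2 and control replicate 1 were nearly level. The means were 188 ± 8.76 and 218 ± 18.3 CPM (SD, n = 3 each), with a log2 fold change of 0.22 (SE 0.087, adjusted p = 0.0761 by edgeR), which missed the threshold. Without Sev replicate 2 the change was 0.29 and was called, with an adjusted p of 0.0222. When TMM was replaced by plain library size the change was only 0.077 (adjusted p = 0.563 by edgeR). With limma on the deposited FPKM it was 0.062 to 0.071 (adjusted p = 0.637 to 0.673). Small genes lie inside NF1 introns on the other strand, and OMG, the oligodendrocyte-myelin glycoprotein gene, is one of them. OMG had 976, 831 and 1107 counts in control and 1374, 1257 and 1647 counts in Sev libraries, a rise of 0.74 (SE 0.11, adjusted p = 0.00150) with no overlap. EVI2A and EVI2B, also inside NF1, had changes of 0.48 and 0.64 that were not called. On the strand of NF1, the intronic RNA ENSG00000266371 fell by 0.76 (SE 0.19, adjusted p = 0.0131), and AK4P1, a pseudogene, had a change of -0.48 that was not called. The 12 annotated NF1 pseudogenes held 0.0867% as many counts as NF1.

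EGFR (ENSG00000146648, chr7:55019021-55211628, plus strand) encodes the receptor of epidermal growth factor. It had 125, 146 and 137 CPM in the control libraries and 163, 152 and 177 CPM in the Sev libraries. All Sev values in CPM lay above all control values, with a gap smaller than the range within either group. The means were 136 ± 10.4 and 164 ± 12.3 CPM (SD, n = 3 each), and the log2 fold change was 0.27 (SE 0.092, unadjusted p = 0.0191 and adjusted p = 0.0451 by edgeR). This call was close to the threshold. It was lost without control replicate 1 (0.20, adjusted p = 0.135), control replicate 3 (0.27, 0.118), Sev replicate 1 (0.27, 0.114) or Sev replicate 3 (0.21, 0.131), and it was lost when TMM was replaced by plain library size (0.13, 0.302), with a block for the replicate number (0.27, 0.0854) and with no expression filter (0.26, 0.0921). With limma on the deposited FPKM the change was 0.11 to 0.12 and the adjusted p 0.379 to 0.429. EGFR-AS1, an antisense RNA inside EGFR, had a change of -0.47 (SE 0.25, adjusted p = 0.171).

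PDGFRA (ENSG00000134853, chr4:54229097-54298247, plus strand) encodes the alpha receptor of platelet-derived growth factor, a receptor of oligodendrocyte precursors. It had 507, 404 and 455 CPM in the control libraries and 398, 717 and 259 CPM in the Sev libraries. Sev replicate 2 was above and Sev replicate 3 below every control. The means were nearly equal at 455 ± 51.6 and 458 ± 235 CPM (SD, n = 3 each), with a log2 fold change of 0.0090 (SE 0.32, adjusted p = 0.984 by edgeR). The SE allows a change of the size seen in EGFR in either direction. Without Sev replicate 2 the change was -0.47 (adjusted p = 0.0893), and without Sev replicate 3 it was 0.29 (adjusted p = 0.353). Among the Sev libraries its log2 SD was 0.737, 4.49 times that of the controls, and 1.66% of the features with at least 10 CPM spread more. The same libraries stood at the ends of the second principal component of all features, which held 10.0% of the variance, with scores of 61.5 for Sev replicate 2 and -52.4 for Sev replicate 3, while the other 4 lay between -9.25 and 6.47. The part of that component in the PDGFRA spread was not tested.

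TERT (ENSG00000164362, chr5:1253147-1295069, minus strand) was detected in every library at a low level. It had 26, 62 and 81 counts in the control libraries, or 0.615, 1.56 and 1.67 CPM, and 46, 20 and 38 counts in the Sev libraries, or 1.22, 0.532 and 0.959 CPM. Control replicate 1 lay among the Sev values, and the groups overlapped. The means were 1.28 ± 0.581 and 0.904 ± 0.348 CPM (SD, n = 3 each), with a log2 fold change of -0.50 (SE 0.44, adjusted p = 0.384 by edgeR). The change was between -0.85 and -0.24 with 1 library left out and was called in none of those 6 fits.

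Per length, the order of levels in control cells was PDGFRA, EGFR, NF1, MTAP and TERT. Their FPKM were 40.7 ± 5.44, 9.25 ± 0.517, 5.90 ± 0.399, 2.77 ± 0.201 and 0.180 ± 0.0809 (SD, n = 3), in that order. No 2 neighbors in this order overlapped in their control values. PDGFRA was 4.40 times as high as EGFR and stood above 98.7% of the 42772 features with an FPKM above 0, and EGFR stood above 91.3%, NF1 above 86.2%, MTAP above 75.3% and TERT above 34.8%. In the Sev libraries the FPKM were 36.6 ± 17.6, 10.1 ± 1.10, 6.22 ± 0.695, 2.04 ± 1.10 and 0.116 ± 0.0455, so the order of the means was the same.

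**Figure D3:**
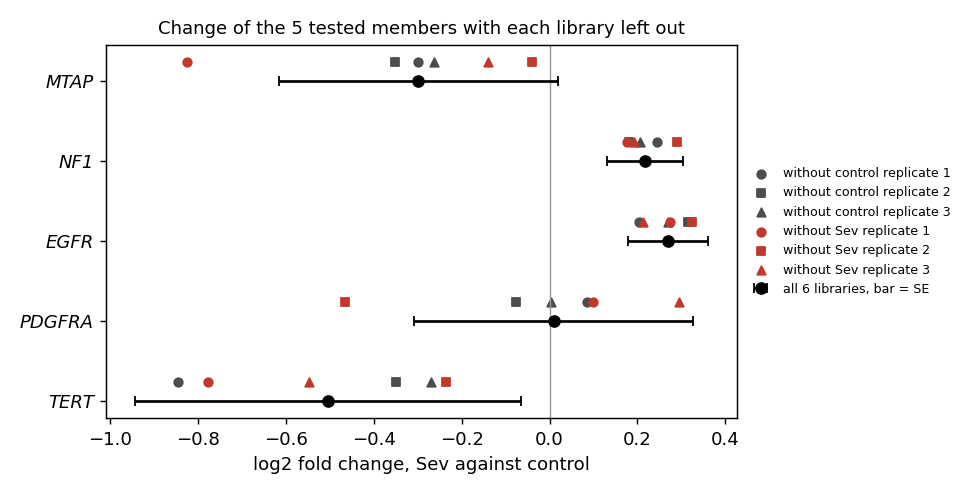
Log2 fold change of Sev against control (horizontal axis) of the 5 tested genes, with black points for the fit on all 6 libraries and bars for its SE. The smaller symbols are the fits without 1 library (grey for a control, red for a Sev library). EGFR and NF1 stay above 0 in each fit, MTAP runs from -0.83 to -0.039 and PDGFRA from -0.47 to 0.29.

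The genes nearest to the expressed members were compared with them. Beside EGFR, SEC61G had a change of 0.14 (adjusted p = 0.251) and LANCL2, on the other side, rose by 1.63 (SE 0.16, adjusted p = 0.000335 by edgeR). Beside NF1, RNF135 had a change of 0.17 (adjusted p = 0.530) and RAB11FIP4 rose by 1.51 (SE 0.16, adjusted p = 0.000442). GSX2 and KIT, on either side of PDGFRA, had changes of 0.17 and 0.61 that were not called. IFNE, before MTAP, fell by 1.41 (SE 0.46, adjusted p = 0.0401), a call that held only without Sev replicate 2 (0.0156) or Sev replicate 3 (0.0396) when a library was left out and was lost without any of the other 4 (0.0617 or more). Thus EGFR and NF1 each had 1 nearest neighbor with a larger change than their own, and the other nearest neighbor was not called. Of tested coding genes that start within 1 Mb of PDGFRA, 4 of 6 rose and 0 fell. Around EGFR 3 of 8 rose and 2 fell, around NF1 4 of 20 rose and 5 fell, and around MTAP 0 of 6 rose and 4 fell (22.1% and 21.5% of all tested features).

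Over a longer reach, 33 named genes around CDKN2A on chromosome 9 were read, of which 15 passed the expression filter. Of these 1 rose and 10 fell, where 22.1% of all tested features rose and 21.5% fell, and the median change was -0.63. MLLT3, a chromatin reader of the super elongation complex, went from 27.3, 23.7 and 23.3 CPM to 10.8, 12.6 and 10.0 CPM, a log2 fold change of -1.15 (SE 0.13, adjusted p = 0.000479 by edgeR). MIR31HG, the host RNA of miR-31, fell by 1.25, LINC01239 by 1.06 and the neuronal RNA-binding protein gene ELAVL2 by 0.99. KLHL9, an adaptor of a ubiquitin ligase, fell by 0.63 and the transcription factor gene DMRTA1, the first coding gene beyond the empty stretch, by 0.50. FOCAD fell by 0.34 (adjusted p = 0.0138), a call lost without control replicate 3 (0.0619) or Sev replicate 1 (0.0637). The gene that rose was PLAA, by 0.33 (adjusted p = 0.0408), and this call was kept only without Sev replicate 2 (0.0250) and was lost without any of the other 5 libraries (0.0521 to 0.130). Of the 18 genes that did not pass the filter, most are interferon genes, and CDKN2A-DT, CDKN2B-AS1 and TUSC1 were at 0 throughout. IFNA4 and IFNA10 were at 0 in each control library and had 3 to 9 counts in each Sev library, while IFNA8 and IFNA13 overlapped between the groups. The numbers of genes that rose and fell thus leave out some with a few more counts after Sev. MTAP, which is not one of the 33 genes, had 2 Sev libraries below the controls and 1 above and was not called.

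Of 13 other genes of the RB pathway, in which the inhibitors at 0 counts act, 11 passed the expression filter. CDKN2C, a further inhibitor of CDK4 and CDK6 on chromosome 1, was also at 0 counts in all 6 libraries, and CDKN2D, the remaining member of this family, had 548 to 791 counts and a change of 0.064 (adjusted p = 0.676). Of the 11 tested genes 6 rose and 2 fell, 54.5% and 18.2% (22.1% and 21.5% of all tested features), with a median of 0.47. Cyclin D1 (CCND1) went from 353, 446 and 390 CPM to 760, 825 and 757 CPM, a rise of 0.98 (SE 0.10, adjusted p = 0.000401 by edgeR). E2F2, an activator of S phase genes, rose by 1.12 and CDK6 by 0.47, while CDK4 had a change of 0.011 (adjusted p = 0.955). RB1 fell by 0.47 (SE 0.11, adjusted p = 0.0127) and its relative RBL2 by 0.92. The groups did not overlap for any of the called genes named here, most of which were picked for a small p. Of all tested features 56.5% did not overlap.

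**Figure D4:**
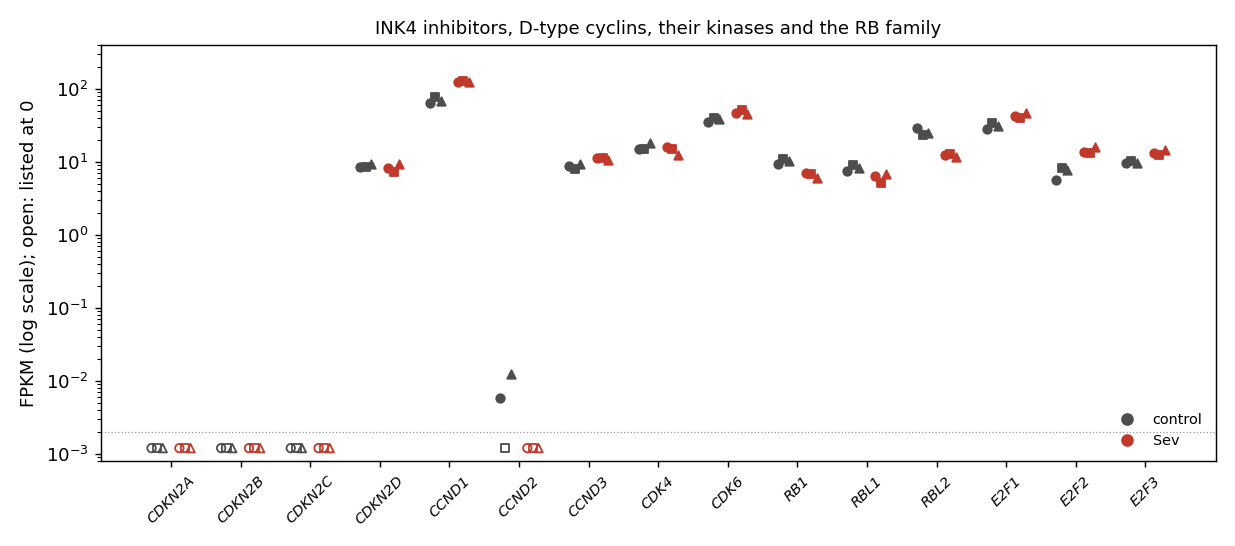
FPKM (vertical axis, log scale) of the INK4 inhibitors, the D-type cyclins, CDK4 and CDK6, the RB family and the activating E2F genes in the 3 control (grey) and 3 Sev (red) libraries. Open symbols are values listed at 0. CDKN2A, CDKN2B and CDKN2C are at 0 in all 6 libraries, and CDKN2D is not.

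On the ARF side, 3 of 8 genes of the ARF axis rose and 0 fell (22.1% and 21.5% of all tested features), with a median of 0.28. NPM1, a nucleolar partner of ARF, rose by 0.68 (SE 0.10, adjusted p = 0.00180 by edgeR) and USP7, which removes ubiquitin from MDM2, by 0.53. MDM2 rose by 0.31 (adjusted p = 0.0351), a call kept without control replicate 3 (0.0468) or Sev replicate 2 (0.0251) and lost without any of the other 4 libraries (0.0838 to 0.108). MDM4, the relative of MDM2, had a change of 0.35 that was not called.

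Around EGFR and PDGFRA, 7 of 20 receptor tyrosine kinase and PDGF ligand genes rose and 3 fell, 35% and 15% (22.1% and 21.5% of all tested features), with a median of 0.28. FGFR4 went from 2.79, 2.85 and 3.89 CPM to 8.95, 13.4 and 9.82 CPM, a rise of 1.75 (SE 0.21, adjusted p = 0.000699 by edgeR), and AXL rose by 0.49. FGFR2 fell by 0.57 and ERBB4, a relative of EGFR, by 0.75. ERBB2, the partner of EGFR, had a change of -0.20 (adjusted p = 0.103), and PDGFA, a ligand of PDGFRA, one of 0.43 (adjusted p = 0.0904). PDGFRB, the relative of PDGFRA, was low at 1.15 ± 0.0497 CPM and rose by 0.81 (adjusted p = 0.0359), a call kept only without Sev replicate 3 (0.0184) and lost without any of the other 5 libraries (0.0678 to 0.0988).

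In the PI3K pathway below the receptors 4 of 20 genes rose and 2 fell, 20% and 10% (22.1% and 21.5% of all tested features), and the median of 0.012 turned to -0.13 with library size only. RICTOR and RPTOR, which define the 2 mTOR complexes, rose by 0.61 and 0.48 (adjusted p = 0.00188 and 0.00359 by edgeR). PIK3C2B, a class II PI3K, fell by 0.91 (adjusted p = 0.00103).

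Beside NF1, 5 of 12 tested genes for RAS GTPase activating proteins and NF1 partners rose and 1 fell, 41.7% and 8.33% (22.1% and 21.5% of all tested features), and the median of 0.14 turned to -0.0081 with library size only. RASA4 went from 20.9, 9.16 and 14.7 CPM to 57.0, 54.2 and 54.4 CPM, a rise of 1.89 (SE 0.26, adjusted p = 0.00110 by edgeR), and RASA2 rose by 0.77. RASA4 has a near-identical copy in the genome, so its counts are uncertain. SPRED2, of a family that brings neurofibromin to the membrane, rose by 0.68, while SPRED1 and RASA1 each had a change of -0.045 that was not called.

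The enzymes around MTAP were mixed, with 5 of 16 genes of methionine salvage and of complexes sensitive to methylthioadenosine that rose and 4 that fell (22.1% and 21.5% of all tested features), and a median of 0.15. AMD1 and SRM, of the polyamine pathway that makes methylthioadenosine, rose by 0.73 and 0.81. MRI1, which acts right after MTAP, fell by 0.49 (SE 0.11, adjusted p = 0.00950 by edgeR), and MAT2B and MTR, of S-adenosylmethionine and methionine synthesis, fell by 0.76 and 0.69. MAT2A fell by 0.45 (adjusted p = 0.0134), a call lost without Sev replicate 1 (0.0539). PRMT5, the methyltransferase that methylthioadenosine inhibits, had a change of 0.26 (adjusted p = 0.0634).

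Beside MGMT, 0 of 15 genes of alkylation damage and mismatch repair rose and 5 fell, 0% and 33.3% (22.1% and 21.5% of all tested features), with a median of -0.26. MSH6, a subunit that recognises mismatched bases, had a change of -0.38 (adjusted p = 0.0846 by edgeR), and the glycosylase gene MPG one of 0.061 (adjusted p = 0.727).

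Beside TERT, 6 of 20 telomerase and telomere genes rose and 5 fell, 30% and 25%, near the shares of all tested features (22.1% and 21.5%), and the median of 0.0031 turned to -0.14 with library size only. DKC1 and NHP2, subunits that hold the RNA of telomerase, rose by 0.97 and 0.73. POT1 and CTC1, which bind the single-stranded end, fell by 1.23 and 1.33, and POT1 went from 39.5, 41.5 and 36.3 CPM to 16.2, 17.1 and 16.6 CPM (SE 0.094, adjusted p = 0.000129 by edgeR). TERC, the telomerase RNA itself, had 1 to 10 counts in a library and was not tested. ATRX, which is lost in gliomas that lengthen telomeres without telomerase, fell by 0.22 (adjusted p = 0.0473), a call kept only without Sev replicate 2 (0.0491) and lost without any of the other 5 libraries (0.0850 to 0.128).

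Among 21 other glioma driver genes 3 rose and 5 fell, 14.3% and 23.8% (22.1% and 21.5% of all tested features), and the median of 0.054 turned to -0.081 with library size only. NRAS and SETD2 rose by 0.66 and 0.39, and TCF12 fell by 0.40. IDH1 had a change of -0.19 (adjusted p = 0.115). Of 10 tested glioma and astrocyte markers 1 rose and 3 fell (22.1% and 21.5% of all tested features). CD44 rose by 0.97, SOX2 and OLIG2 fell by 0.72 and 1.99, and GFAP and VIM had changes of 0.029 and 0.17 that were not called. Of 10 tested markers of other cell types, 3 rose and 1 fell (22.1% and 21.5% of all tested features), with SYT1 at 0.55, MBP at 1.01 and GAD1 at -1.16, and the part of these markers in the results above was not tested.

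**Figure D5:**
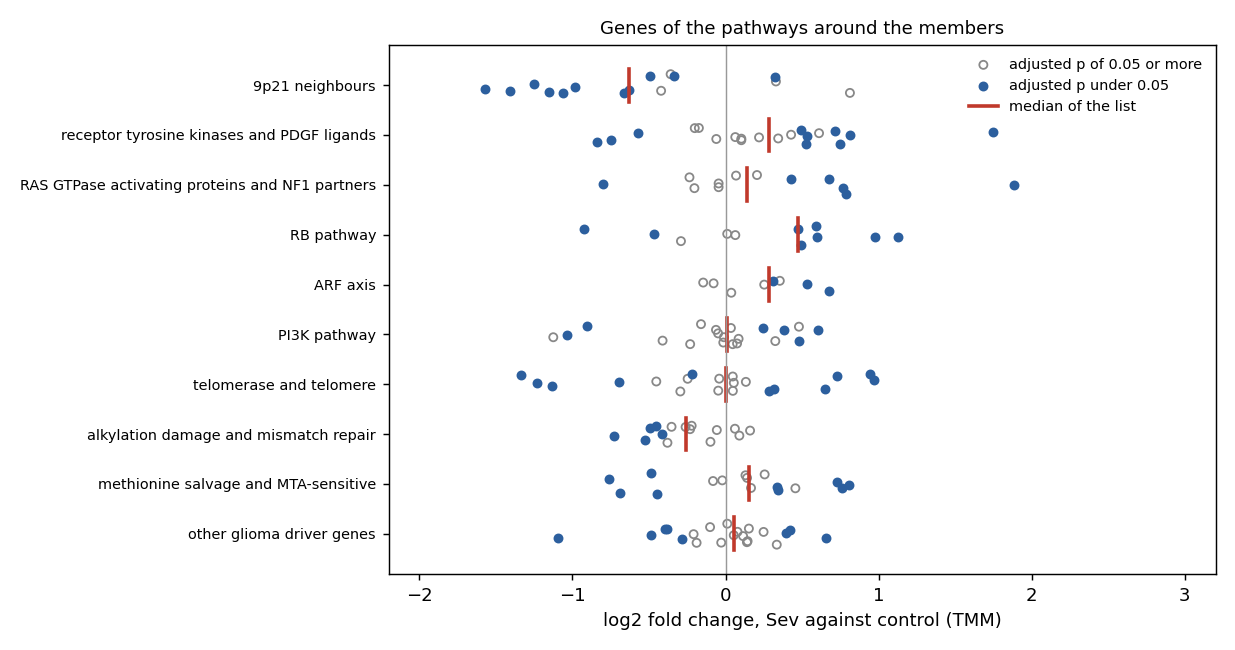
Log2 fold change of Sev against control (horizontal axis, TMM scaling) of each tested gene in the lists around the 8 genes. Filled points have an adjusted p under 0.05, open points do not, and the red line is the median of the list. The list around CDKN2A on chromosome 9 and the list of alkylation damage and mismatch repair lie mostly below 0, with medians of -0.63 and -0.26, and the RB pathway lies mostly above 0, with a median of 0.47.

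The genes most like each member over the 6 libraries were found by Pearson's r of log2 CPM among 16062 named genes with at least 1 CPM. These r rest on 6 libraries in 2 groups and are descriptions. MTAP was most like SLC13A3 (r = 0.978) and HDHD2 (0.975), both highest in Sev replicate 1. PDGFRA was most like ITPKC (0.996) and CLIP2 (0.992), and CLIP2 had 46.3, 66.1 and 37.5 CPM in the Sev libraries, in the order of PDGFRA. NF1 was most like MC1R (0.995) and ATF6 (0.993), TERT most like MDH1 (0.979) and FARS2 (0.976), and EGFR most like PRMT5 (0.998) and MCM5 (0.998). An r over 0.95 was reached by 354 genes with EGFR, by 48 with PDGFRA, by 41 with NF1, by 15 with MTAP and by 12 with TERT.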

How the data were processed

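The data were 6 RNA-seq libraries of U251 cells, 3 control and 3 Sev, grouped by their labels. The authors deposited 2 tables, one of raw counts per feature and one of FPKM. The submitters' processing notes name bcl2fastq 2.19, featureCounts and hg18. The aligner, the annotation, the strand setting and the FPKM tool are not given in the sources used here. Overlapping and antisense genes are therefore uncertain. Positions came from GENCODE 29 (GRCh38) through the Ensembl identifiers, of which it lists 58457. The remaining features kept their own names.

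The count test was edgeR 4.0.16 in R 4.3.3 (filterByExpr, TMM, glmQLFit and glmQLFTest, no covariate), with Benjamini-Hochberg adjustment over 27514 features. The SE was the size of the log2 fold change over the root of its F statistic. An exact permutation test of 3 against 3 cannot go under 0.1, so p-values came from this model. Depth was 38624292 to 46318311 counts a library. Replicates differed beyond sampling noise in 49.0% to 66.6% of 15608 genes, so none was a second copy. On simulated data the test recovered 95.5% of 200 genes changed by a log2 fold change of 1 among 27514.

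The 8 genes and all lists were chosen with earlier results of these data known. Named in the text were these 8, the 2 genes with the smallest p in each direction among those called in each list, genes picked by name, the 2 genes most like each tested member, and the nearest protein-coding neighbors of expressed members. Features inside a member and genes near MGMT were named for their position, and CDKN2D, CDKN2A-DT, TUSC1, AIF1 and NES after their values were seen. Alternatives were DESeq2 size factors, library size only, the DESeq2 1.42.0 Wald test, a block for the replicate number, no filter, a minimum of 10 counts per library, each library left out, and limma 3.58.1 on log2(FPKM + 1), with and without a filter (0.5 FPKM in 3 libraries), and on filtered log2(FPKM + 0.1). Results for some genes that this rule names are not reported here.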

Additional observations from a re-analysis of the deposited data

How the results depend on the processing

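NF1 and EGFR stayed above 0 and MTAP and TERT below 0 in every alternative that gave a value, and features called lower numbered 4438 to 7502 (5920 as reported). TERT gave no value with filtered FPKM. Features called higher numbered 6094, but 3584 with log2(FPKM + 1) and 3269 with log2(FPKM + 0.1). Higher features made up 50.7% of calls, 38.3% with library size only, which shifts the median of all features by -0.14, and 34.8%, 34.2% and 38.1% with the FPKM settings. EGFR was the 1 member called, and 0 were called with library size only (EGFR 0.13), no filter (0.26), the replicate block (0.27), log2(FPKM + 1) with or without a filter (0.11) and log2(FPKM + 0.1) (0.12). With 1 library left out 0 to 2 were called, with EGFR at 0.20 to 0.32, NF1 at 0.18 to 0.29, MTAP at -0.83 to -0.039 and PDGFRA at -0.47 to 0.29. PDGFRA was -0.15, -0.0033, -0.12, -0.24 and -0.25 with library size only, no filter, the block, log2(FPKM + 1) (also unfiltered) and log2(FPKM + 0.1). List genes called higher fell from 40 to 25 with log2(FPKM + 0.1). The causes were not tested.

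Changes close to 0 turned sign. With library size only, log2(FPKM + 1) with or without a filter, and log2(FPKM + 0.1), CDK4 was -0.13, -0.13 and -0.14, GFAP -0.12, -0.074 and -0.076, MPG -0.078, -0.070 and -0.078, ATF6 -0.015, -0.018 and -0.019, CLIP2 -0.14, -0.14 and -0.16, and SEC61G -0.00030, -0.0046 and -0.0052. CDK4 was -0.0021 without a filter and CLIP2 -0.024 with the block. With 1 library left out CDK4 ran from -0.065 to 0.14, GFAP from -0.15 to 0.33, MPG from -0.035 to 0.12, ITPKC from -0.083 to 0.050, CLIP2 from -0.24 to 0.19, RNF135 from -0.030 to 0.28 and GSX2 from -0.028 to 0.31.

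Same-numbered libraries did not deviate together (correlations of -0.0072, 0.0035 and 0.027), and not every library correlated best with its own number, so the numbers were not taken as pairs. Under the replicate block 5228 features were called higher and 5021 lower.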
